A study of Mus musculus with 15 samples.

Results

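The complement C1q chains are the products of 3 genes, C1qa, C1qb and C1qc, which were taken by symbol from 2 tables of RNA sequencing values. All 3 were found among the 28347 genes of the steady-state table and among the 48709 genes of the surgery table. The study comprised 15 libraries of sorted cells from C57BL/6 mice, in 5 groups of 3. In the steady state, macrophages of visceral adipose tissue were sorted as CX3CR1-high CCR2-high, called CCR2-high here, or as CX3CR1-low CCR2-low, called CCR2-low here. A further group was labelled blood monocytes. The surgery libraries held CX3CR1-low CCR2-low macrophages of visceral adipose tissue from mice with myocardial infarction (MI) or with sham surgery. No further allele, treatment or age is given in the sources used here, nor are the time after MI, the number of sorted cells or whether each library is a separate animal, so p-values measure only the spread between these libraries.

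C1q starts the classical complement pathway. Each C1q molecule is built from A, B and C chains, in equal numbers, that wind around each other through a collagen-like stretch and end in globular heads that bind antibody complexes, pentraxins and dying cells. The proteases C1r and C1s dock on the collagen-like stalks and cut C4 and C2. Most complement proteins of the blood are made by the liver, whereas C1q is made mainly by macrophages and related myeloid cells, including those of fat.

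The 3 genes lie side by side on the minus strand of chromosome 4 and span 18675 bases on mm10, from C1qb (136880129 to 136886187, ENSMUSG00000036905) through C1qc (136889804 to 136893065, ENSMUSG00000036896) to C1qa (136895917 to 136898803, ENSMUSG00000036887). The coding transcript of each has 3 exons in GENCODE M21. The collagen-like stretch is visible in the coding sequence as a glycine codon that recurs after every pair of other codons. The longest unbroken run held 29 such triplets of codons in C1qb, 16 in C1qa and 16 in C1qc. The opening 10 triplets of each run are printed from the GENCODE M21 coding transcripts (GRCm38) to show the feature that the chains share, with the glycine codons in capitals.
C1qa: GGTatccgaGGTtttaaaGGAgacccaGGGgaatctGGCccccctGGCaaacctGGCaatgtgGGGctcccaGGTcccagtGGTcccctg
C1qb: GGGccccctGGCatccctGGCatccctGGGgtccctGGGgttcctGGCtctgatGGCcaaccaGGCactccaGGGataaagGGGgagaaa
C1qc: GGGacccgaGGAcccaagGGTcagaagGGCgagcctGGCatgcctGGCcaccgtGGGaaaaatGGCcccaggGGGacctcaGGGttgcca

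Because the chains moved together over the libraries, the 250 bases before the RefSeq start (GRCm38.p6, minus strand) were searched for C1qb and C1qc. C1qa was not searched, because no such sequence was available for it. For C1qb they are shown whole (chr4:136886201-136886450). For C1qc the 151 bases nearest the start lie within the GENCODE M21 gene, and the 99 bases beyond it are shown (chr4:136893066-136893164). Capitals mark matches, on either strand, to GAGGAA, the core recognised by the myeloid factor PU.1.
C1qb: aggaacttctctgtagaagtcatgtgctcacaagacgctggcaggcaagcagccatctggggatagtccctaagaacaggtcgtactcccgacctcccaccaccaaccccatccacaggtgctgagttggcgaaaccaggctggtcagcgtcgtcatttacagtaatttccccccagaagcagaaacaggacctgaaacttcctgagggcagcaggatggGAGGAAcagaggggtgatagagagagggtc
C1qc: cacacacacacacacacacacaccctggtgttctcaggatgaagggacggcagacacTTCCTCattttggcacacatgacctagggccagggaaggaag

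GAGGAA was matched 30 bases before the C1qb start and, as its complement TTCCTC, 193 bases before the C1qc start, and in 23.3% of the 32851 promoters of the same length. TGANTCA (AP-1, in 6.75% of promoters) and TATAAA (the TATA box, in 12.4%) had no match in either stretch. These matches describe letters and do not show binding.

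Depth and labels were examined before the chains. Reads worked back from the values came to 19.33 to 26.49 M (M, 1e6) per steady-state library over the genes whose values were whole, and the surgery values had been divided by totals of 57.6 to 75.6 M. The sort genes followed the labels in the steady state, with Ccr2 at 451 ± 18.2 TPM (transcripts per 1e6 transcripts, mean ± SD, n = 3) in CCR2-high and 76.1 ± 8.79 TPM in CCR2-low libraries, and Cx3cr1 at 52.6 to 78.1 and 1.59 to 2.55 TPM. The macrophage list (Csf1r, Cd68, Mertk and others, 9 tested) summed to 11950 to 16340 TPM in CCR2-high, 17281 to 23702 TPM in CCR2-low and 265 to 356 TPM in labelled monocyte libraries. The labelled monocyte libraries held Ly6c2, a marker of classical monocytes, at 5651 TPM, but the 6 primary granule genes of granulocyte and monocyte precursors, led by Mpo and Elane, summed to 25554 to 30836 TPM there, against at most 15.4 TPM in any macrophage library. These libraries are called labelled monocytes throughout. In the surgery table, Cx3cr1 stood at 20.8 ± 4.18 RPKM (reads per kilobase and 1e6 reads) in sham and 14.2 ± 7.87 RPKM in MI libraries although both carry the CX3CR1-low label. MI replicate 1 stood apart, with a macrophage list sum of 11719 RPKM where the other 5 surgery libraries had 4783 to 6475 RPKM.

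C1q transcripts were among the most abundant of both steady-state macrophage subsets and were close to the limit of counting in the labelled monocytes. Together the 3 chains made up 1.07 ± 0.134% of all TPM in CCR2-high libraries, 1.38 ± 0.108% in CCR2-low libraries and 0.000374 ± 0.0001% in labelled monocyte libraries. C1qb, which encodes the B chain, was read at 4849, 5917 and 5848 TPM in CCR2-high replicates 1 to 3, at 6940, 6386 and 6058 TPM in CCR2-low replicates 1 to 3, and at 1.74, 1.85 and 1.75 TPM in the labelled monocytes. It ranked 15 to 19 among all genes in CCR2-low libraries and 19 to 24 in CCR2-high libraries. The CCR2-high and CCR2-low values did not overlap, and the labelled monocytes lay far below both.

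C1qa, the A chain gene, was read at 2468, 3342 and 3152 TPM in CCR2-high libraries, at 4528, 3741 and 3974 TPM in CCR2-low libraries and at 0.853, 1.83 and 0.985 TPM in labelled monocytes. Its rank was 27 to 31 in CCR2-low, 34 to 47 in CCR2-high and 12623 to 14228 in labelled monocyte libraries. C1qc, the C chain gene, was read at 1840, 2428 and 2200 TPM in CCR2-high libraries, at 3536, 2958 and 3137 TPM in CCR2-low libraries and at 0.368, 1.18 and 0.657 TPM in labelled monocytes. For each chain every CCR2-low library exceeded every CCR2-high library, and CCR2-high replicate 1 was the lowest macrophage library for all 3. Such a separation without overlap was common, at 37.7% of the 15467 genes tested in either direction and 18% with CCR2-high lower. In the labelled monocytes the C1qc values rested on 12, 42 and 26 reads, and the value of replicate 1 has an exact Poisson 95% interval of 0.19 to 0.642 TPM, which covers counting error only.

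**Figure D1:**
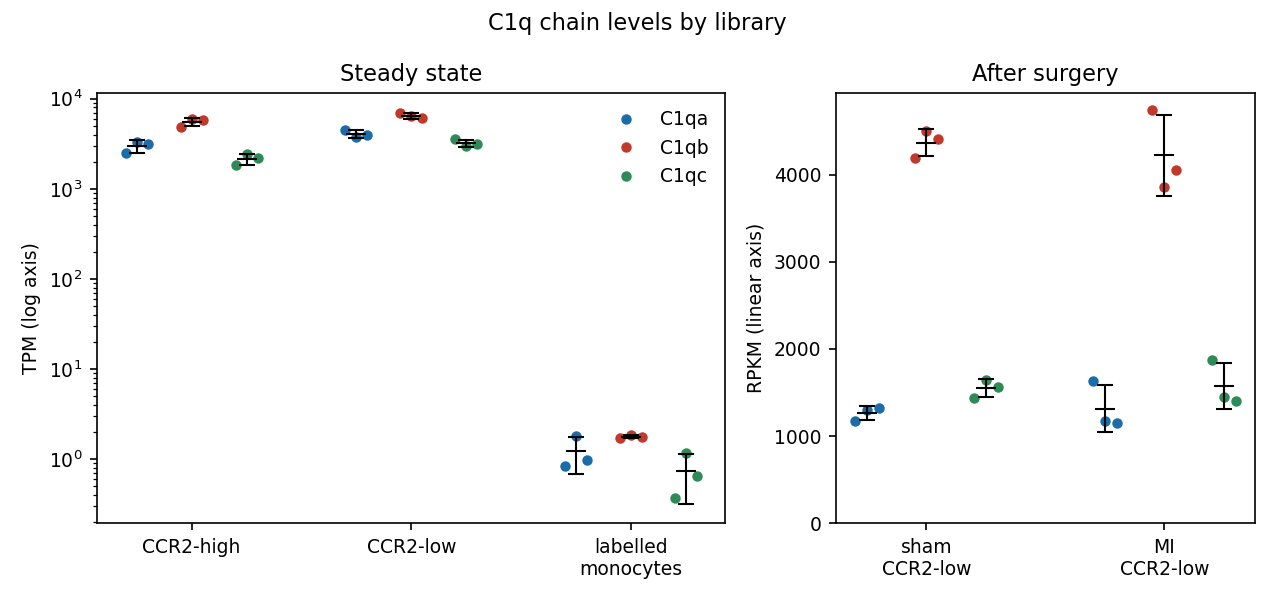
Levels of the C1q chains in every library, as TPM on a log axis for the steady state (left) and as RPKM on a linear axis after surgery (right), with points for libraries and bars for the mean ± SD of 3. The macrophage libraries sit between 1840 and 6940 TPM and the labelled monocytes between 0.368 and 1.85 TPM, while the sham and MI libraries overlap for each chain.

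The comparison of macrophages with labelled monocytes asked how far the chains are set apart from the blood cells. Group means were 2442-fold (C1qa), 3111-fold (C1qb) and 2929-fold (C1qc) higher in CCR2-high libraries, and 3336-fold, 3630-fold and 4360-fold higher in CCR2-low libraries. On the log2(TPM + 1) scale, which understates these differences because the monocyte values are near 1, C1qb rose by 10.95 ± 0.10 (SE) in CCR2-high libraries (adjusted p = 3.79e-14) and by 11.18 ± 0.10 in CCR2-low libraries (adjusted p = 3.88e-14). C1qa rose by 10.41 ± 0.17 and 10.86 ± 0.17, and C1qc by 10.30 ± 0.16 and 10.88 ± 0.16, with adjusted p from 2.06e-12 to 2.8e-12. In these comparisons 77.8% and 79% of the 15467 genes tested were called at an adjusted p below 0.05, and 26.5% and 28.4% were called higher in the macrophages, so a call alone says little about C1q. The size of the difference does more to place the chains, which ranked 6, 8 and 9 from the highest in CCR2-high against labelled monocytes and 3, 6 and 7 in CCR2-low against labelled monocytes.

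The other genes among the 10 largest differences in CCR2-high libraries were Retnla, Cd83, Cxcl1, Pltp and the antigen presentation genes H2-Eb1, Cd74 and H2-Aa. In CCR2-low libraries they were Retnla, Folr2, Cd209f, Cd209g, Pltp, H2-Eb1 and Cd74. Both comparisons share the labelled monocyte libraries. The median gene lay 0.42 and 0.40 lower in the macrophages on the log2 scale, and 34.1% and 36% of the calls were higher. With median-of-ratios scaling the median moved to 0.02 and 0.01 and the share of higher calls to 50.4% and 50.6%, and the chains kept log2 differences of at least 9.96 in each of the 18 alternatives run. In bulk libraries, fewer cells that make a transcript and less transcript per cell cannot be told apart.

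The authors' deposited table gives log2 differences of -11.58, -12.01 and -11.72 for C1qa, C1qb and C1qc in labelled monocytes minus CCR2-high macrophages. In the authors' deposited table the corresponding values against CCR2-low macrophages are -12.06, -12.25 and -12.30.

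Between the macrophage subsets, which differ by the sort, the chains were lower in CCR2-high libraries, and only the C1qc difference passed the test. The CCR2-high mean was 0.672 of the CCR2-low mean for C1qc, 0.732 for C1qa and 0.857 for C1qb. C1qc fell by 0.58 on the log2 scale (SE 0.16, 95% interval -0.94 to -0.22, adjusted p = 0.0343). C1qa differed by -0.46 (SE 0.17, interval -0.83 to -0.09, adjusted p = 0.0882) and C1qb by -0.23 (SE 0.10, interval -0.45 to -0.0037, adjusted p = 0.157). Of all genes tested, 17.7% were called in this comparison and 8.74% were called lower in CCR2-high libraries, with a median log2 difference of -0.01. All 3 differences kept their direction in each of 18 alternatives, but the C1qc call was lost in 9 of them, among them without CCR2-high replicate 1 (-0.47, adjusted p = 0.136), CCR2-high replicate 3 (-0.60, 0.0752), CCR2-low replicate 1 (-0.51, 0.113) or CCR2-low replicate 3 (-0.59, 0.0782). The authors' deposited table gives log2 differences of -0.48, -0.24 and -0.58 for C1qa, C1qb and C1qc with an adjusted p of 1 for each.

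Markers of several other cells differed in this comparison, in which 8.74% of all genes were called lower and 8.93% higher in CCR2-high libraries. The 7 genes of large peritoneal macrophages, among them Timd4, Gata6 and Fcna, were all lower in CCR2-high libraries and summed to 289 to 409 TPM there against 1977 to 2507 TPM in CCR2-low libraries. All tested markers of fibroblasts (5 of 5), endothelium (6 of 6), mesothelium (3 of 3) and adipocytes (3 of 3) were lower in CCR2-high libraries too. Their sums were 5.94 to 28.0 against 59.6 to 116 TPM for fibroblasts, 14.0 to 25.3 against 49.4 to 57.4 TPM for endothelium, 0.79 to 4.27 against 7.01 to 11.2 TPM for mesothelium and 9.73 to 16.2 against 23.1 to 36.4 TPM for adipocytes, and no marker of these lists was at 0 in all libraries of either group. The neutrophil list, led by Mmp9, summed to 128 to 214 against 441 to 597 TPM, with Ly6g at 0 in every library of both groups. Of its 9 tested members 2 were called lower and 0 higher, with a median log2 difference of -0.006, beside -0.01 over all genes. The classical monocyte list, led by F13a1, summed to 1609 to 2227 against 2663 to 3548 TPM. Of its 6 tested members, among them the sort gene Ccr2, 2 were called higher and 1 lower, with a median log2 difference of -0.12. Of the 8 non-classical monocyte markers, among them the sort gene Cx3cr1, 5 were called higher in CCR2-high libraries. Their sums overlapped, at 1132 to 1426 and 709 to 1189 TPM. The part of these cells in the C1q difference was not tested.

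The chains did not differ by the same amount, so their ratios were compared within libraries, where the scaling of a library cancels. The ratio of C1qa to C1qb was 0.509, 0.565 and 0.539 in CCR2-high replicates 1 to 3 and 0.652, 0.586 and 0.656 in CCR2-low replicates 1 to 3. The ratio of C1qc to C1qb was 0.380, 0.410 and 0.376 in CCR2-high and 0.510, 0.463 and 0.518 in CCR2-low libraries. The groups did not overlap for either ratio: relative to C1qb, the other chains were lower in every CCR2-high library than in any CCR2-low library. As a share of all C1q reads, C1qb took 44.1 to 46.3% in CCR2-high libraries and 39.3 to 42.0% in CCR2-low libraries.

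The planned exact permutation test over the 3 steady-state groups gave p = 0.661 for C1qa to C1qb and p = 0.629 for C1qc to C1qb (adjusted p = 0.661 for each over 4 ratio tests), and the labelled monocyte ratios ranged widely, from 0.490 to 0.990 and from 0.211 to 0.640, on 59 to 114 C1q reads per library. Without the labelled monocytes, the exact two-sided permutation test of the macrophage subsets gave p = 0.1 for both ratios, which is the smallest p that 3 against 3 libraries allow. The mean log2 ratio was lower in CCR2-high libraries by 0.231 for C1qa to C1qb and by 0.353 for C1qc to C1qb. The ratio of C1qc to C1qa differed less, with 0.723 ± 0.024 in CCR2-high and 0.787 ± 0.00526 in CCR2-low libraries (n = 3 each), and again did not overlap (exact p = 0.1, the smallest possible).

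**Figure D2:**
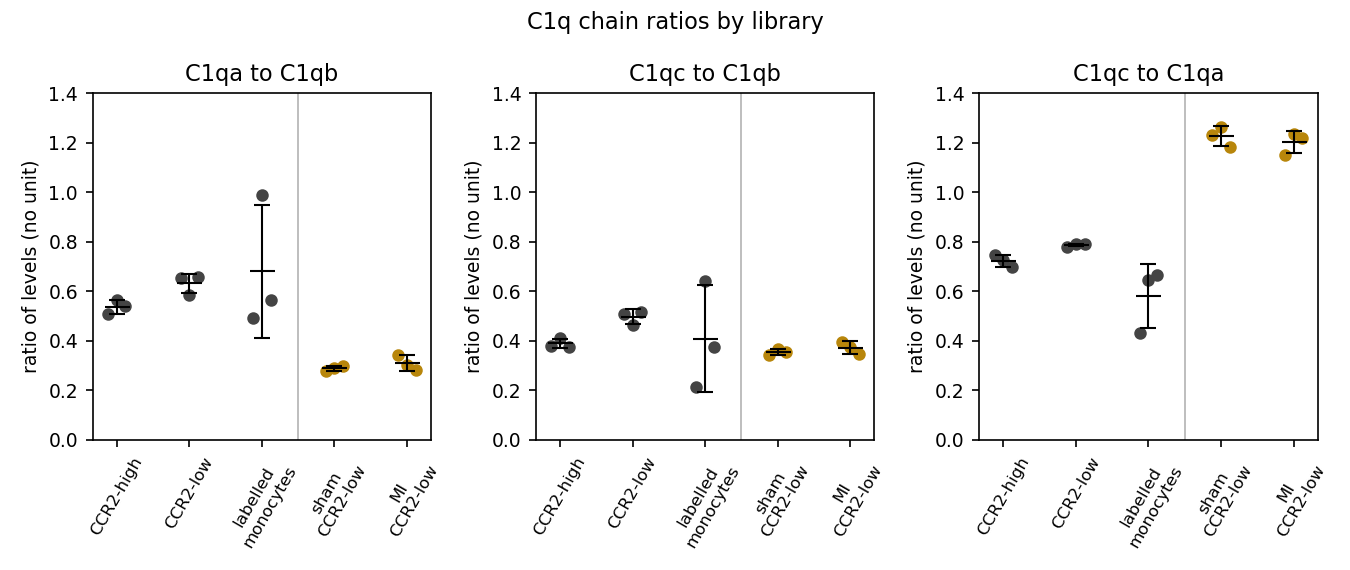
Ratios of C1q chain levels within each library (vertical axes, no unit), with points for libraries, bars for the mean ± SD of 3, and a line between the steady-state and the surgery tables. Both ratios to C1qb are lower in the CCR2-high group than in the CCR2-low group without overlap, the labelled monocyte ratios scatter from 0.211 to 0.990, and C1qc exceeds C1qa only in the surgery libraries.

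Within each of the 5 groups the ratio of C1qc to C1qa varied less than either of these chains alone. In CCR2-low libraries the SD of log2 C1qa and log2 C1qc was 0.141 and 0.131, whereas the SD of their log2 ratio was 0.00966. In CCR2-high libraries the SDs were 0.232 and 0.203, and that of the ratio was 0.048. The ratios to C1qb were looser there, with SDs of 0.0691 to 0.092 over both macrophage groups, each below the SD of C1qb alone (0.161 and 0.0988). This did not hold in the labelled monocytes, where log2 C1qb had an SD of 0.0499 and the ratios to it SDs of 0.536 and 0.799, and in sham libraries C1qb alone (0.0521) varied about as much as the ratio of C1qa to C1qb (0.0511). Each of these SDs comes from 3 libraries and is given as a description.

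The order of the chains depended on the gene length used. Both tables had been divided by the full exon length of each gene, 1040 bases for C1qa, 1088 for C1qb and 1931 for C1qc. The C1qc length includes 728 bases that belong only to a transcript that keeps an intron, and its coding transcript has 1203 bases. On the deposited scale, C1qb exceeded C1qa and C1qa exceeded C1qc in every steady-state macrophage library. Per coding transcript, an alternative chosen after the data were seen, C1qc came to 3461 ± 476 TPM in CCR2-high and 5152 ± 475 TPM in CCR2-low libraries (n = 3 each), above C1qa at 2987 ± 459 and 4081 ± 404 TPM, and the mean ratio of C1qc to C1qa became 1.16 and 1.26. All C1qc reads were kept, including any within the 728 bases, so these C1qc values are upper bounds for the coding transcript. A fixed change of length leaves the differences between groups as they were. In the surgery table C1qc exceeded C1qa on either scale.

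After MI, C1q levels in CCR2-low macrophages overlapped those after sham surgery. C1qb was read at 4196, 4502 and 4409 RPKM in sham replicates 1 to 3 and at 4747, 3863 and 4057 RPKM in MI replicates 1 to 3. C1qa was read at 1167, 1300 and 1317 RPKM in sham and at 1630, 1169 and 1148 RPKM in MI libraries. C1qc was read at 1439, 1646 and 1559 RPKM in sham and at 1877, 1445 and 1399 RPKM in MI libraries. MI replicate 1 was the highest of the 6 libraries for each chain, and the other MI libraries lay within or below the sham range.

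The chains made up 1.74 ± 0.127% of all RPKM in sham and 1.78 ± 0.327% in MI libraries, and C1qb ranked 8 to 10 among all genes in the 6 libraries. The MI minus sham difference in log2(RPKM + 1) was 0.04 for C1qa (95% interval -0.43 to 0.51, adjusted p = 0.973), -0.05 for C1qb (-0.54 to 0.43, 0.965) and 0.01 for C1qc (-0.44 to 0.46, 0.992). Differences within these intervals are therefore not excluded with 3 libraries a group. In simulated data for MI against sham, with only 200 genes changed, 0% of them were recovered at a log2 change of 0.5 and 76% at 1. In this comparison limma called 0% of the 9607 genes tested, with 753 genes at an unadjusted p below 0.05, and no other test was run across all genes. Without MI replicate 1 the differences were -0.12, -0.14 and -0.12 for C1qa, C1qb and C1qc, with adjusted p from 0.801 to 0.816. In MI replicates 1 to 3 the large peritoneal macrophage list summed to 1232, 820 and 436 RPKM, against 249 to 467 RPKM in sham libraries.

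Marker lists of several other cells separated the surgery groups although no gene was called. Sums were higher in every MI library than in any sham library for fibroblasts (59.0 to 90.1 against 16.5 to 37.3 RPKM), adipocytes (9.17 to 14.6 against 2.94 to 4.43 RPKM), endothelium (4.71 to 7.04 against 3.06 to 3.61 RPKM), neutrophils (268 to 452 against 96.3 to 173 RPKM) and classical monocytes (1099 to 1477 against 820 to 877 RPKM). The T and B cell list ran the other way, at 1.91 to 4.30 against 5.99 to 17.8 RPKM. Members tested numbered 5 of 6 for fibroblasts, 3 of 6 for adipocytes and 1 of 6 for endothelium. For neutrophils they numbered 4 of 9, for classical monocytes 7 of 8 and for T and B cells 1 of 6. The tested classical monocyte markers had a median log2 difference of -0.02, beside -0.02 over all genes. Sums overlapped for mesothelium (7.55 to 12.3 against 2.66 to 9.35 RPKM) and dendritic cells (7.48 to 154 against 7.02 to 11.5 RPKM). They also overlapped for the non-classical monocyte, macrophage, primary granule and large peritoneal macrophage lists. The share of all genes that separate the surgery groups in this way was not computed. None of the markers of the lists that separated was at 0 in all libraries of either group. The part of other cells in the C1q values was not tested.

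The ratio of C1qa to C1qb was 0.278, 0.289 and 0.299 in sham and 0.343, 0.303 and 0.283 in MI libraries (exact two-sided permutation p = 0.4, adjusted p = 0.661). The ratio of C1qc to C1qb was 0.343, 0.366 and 0.354 in sham and 0.395, 0.374 and 0.345 in MI libraries (exact two-sided permutation p = 0.4, adjusted p = 0.661). The groups overlapped for both ratios, and the smallest possible p is 0.1. Set beside the steady-state CCR2-low libraries, the C1qa to C1qb ratio averaged 0.289 after sham surgery and 0.631 in the steady state, and C1qb took 51.9 to 53.3% of C1q reads after sham surgery and 39.3 to 42.0% in the steady state. The gene lengths behind the ratios are the same in both tables, but the tables were made separately. The sorted cells may differ too, given the Cx3cr1 values of the surgery libraries above. The surgery, the sorted cells, the processing and the batch therefore cannot be told apart, and no test was made.

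The components that act with C1q in the classical pathway were mostly lower in CCR2-high libraries than in CCR2-low ones. Of 9 list members, 7 were tested, 6 were called lower and 0 higher, beside 8.74% of all genes called lower, and the median log2 difference was -1.06, beside -0.01 over all genes. C4b, the complement component that C1s cuts, stood at 101 ± 3.28 TPM in CCR2-high and 661 ± 152 TPM in CCR2-low libraries (log2 difference -2.68, adjusted p = 3.94e-06), and C4a at 24.3 ± 1.13 and 158 ± 37.7 TPM (-2.62, adjusted p = 6.29e-06). C1ra, a C1r protease gene, stood at 16.2 ± 2.56 and 33.1 ± 4.51 TPM (-0.99, adjusted p = 0.00254). C4a and C4b are near-identical copies, as are C1ra and C1rb, so the split of reads within each pair is uncertain. Calls within such a pair are therefore not separate results. In the surgery table C4a and C1rb were at most 0.268 RPKM in any library.

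Serping1, which encodes the C1 inhibitor, stood at 2.67 ± 2.81 and 16.0 ± 4.84 TPM (log2 difference -2.43, adjusted p = 0.00302). C2, the protease precursor cut by C1s, stood at 0.545 ± 0.225 and 2.20 ± 0.348 TPM (-1.06, adjusted p = 0.00205). C3, cut further down the pathway, was not called, with 32.6 ± 13.9 and 51.7 ± 47.7 TPM. C4b, the most abundant partner in both subsets, stayed far below C1qb, which averaged 5538 and 6461 TPM. The partner genes showed larger log2 differences between the subsets than the C1q chains did, apart from C3, a difference between genes that was not tested. Fibroblast, endothelial, mesothelial and adipocyte markers were lower in CCR2-high libraries too. The part of such cells in the partner differences was not tested.

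Against labelled monocytes, 5 of the 7 tested partners were called higher in CCR2-high libraries and 6 in CCR2-low libraries. Of all genes tested, 26.5% and 28.4% were called higher in these comparisons. C3 was called lower in CCR2-high libraries (81.3 ± 18.0 TPM in labelled monocytes), a call that was lost under median-of-ratios scaling (adjusted p = 0.151) and under quantile normalization (adjusted p = 0.118). After MI none of 6 tested partners was called. C3 stood at 281 ± 27.0 RPKM in sham and 205 ± 96.3 RPKM in MI libraries and C4b at 124 ± 11.2 and 260 ± 168 RPKM.

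The soluble and membrane relatives that recognise targets as C1q does were led by Fcna, ficolin A, which starts the lectin pathway. Of 11 list members 3 were tested, and Fcna and Colec12 were called lower in CCR2-high libraries, beside 8.74% of all genes. Fcna stood at 258 ± 44.3 TPM in CCR2-high, 1526 ± 321 TPM in CCR2-low and 0.83 ± 0.135 TPM in labelled monocyte libraries (CCR2-high minus CCR2-low log2 difference -2.55, adjusted p = 1.74e-05). Fcna is also on the large peritoneal macrophage list. Colec12, a scavenger receptor with a collagen-like stretch, stood at 22.0 ± 3.67, 136 ± 14.1 and 0.00489 TPM (-2.58, adjusted p = 3.94e-06). Fcnb, ficolin B, had the opposite distribution, with 29.1 ± 5.54 TPM in labelled monocytes and at most 0.0924 TPM in any macrophage library. The lectin pathway genes Mbl2, Masp1 and Masp2 averaged at most 0.2 TPM in each group.

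Proteins that bind C1q moved the other way or were not called. Of 15 list members 10 were tested, 4 were called higher in CCR2-high libraries against CCR2-low ones and 0 lower, beside 8.93% of all genes called higher, with a median log2 difference of 0.16. The 4 were Itgax (22.97 ± 6.59 against 7.09 ± 4.59 TPM, adjusted p = 0.00862), the alpha chain of complement receptor 4, the inhibitory receptor Lair1 (77.3 ± 9.45 against 43.9 ± 6.87 TPM, adjusted p = 0.00416), Cd93 (71.2 ± 10.9 against 42.9 ± 4.63 TPM, adjusted p = 0.0119) and the endocytic receptor Lrp1 (60.3 ± 6.98 against 45.9 ± 3.21 TPM, adjusted p = 0.0479). The most abundant, Calr, which encodes the chaperone calreticulin, ranged from 364 to 427 and from 362 to 383 TPM and was not called (adjusted p = 0.643). Itgb1, Itgam and Cd33 were not called either, with adjusted p of 0.784, 0.232 and 0.783. After MI none of 9 tested members was called.

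**Figure D3:**
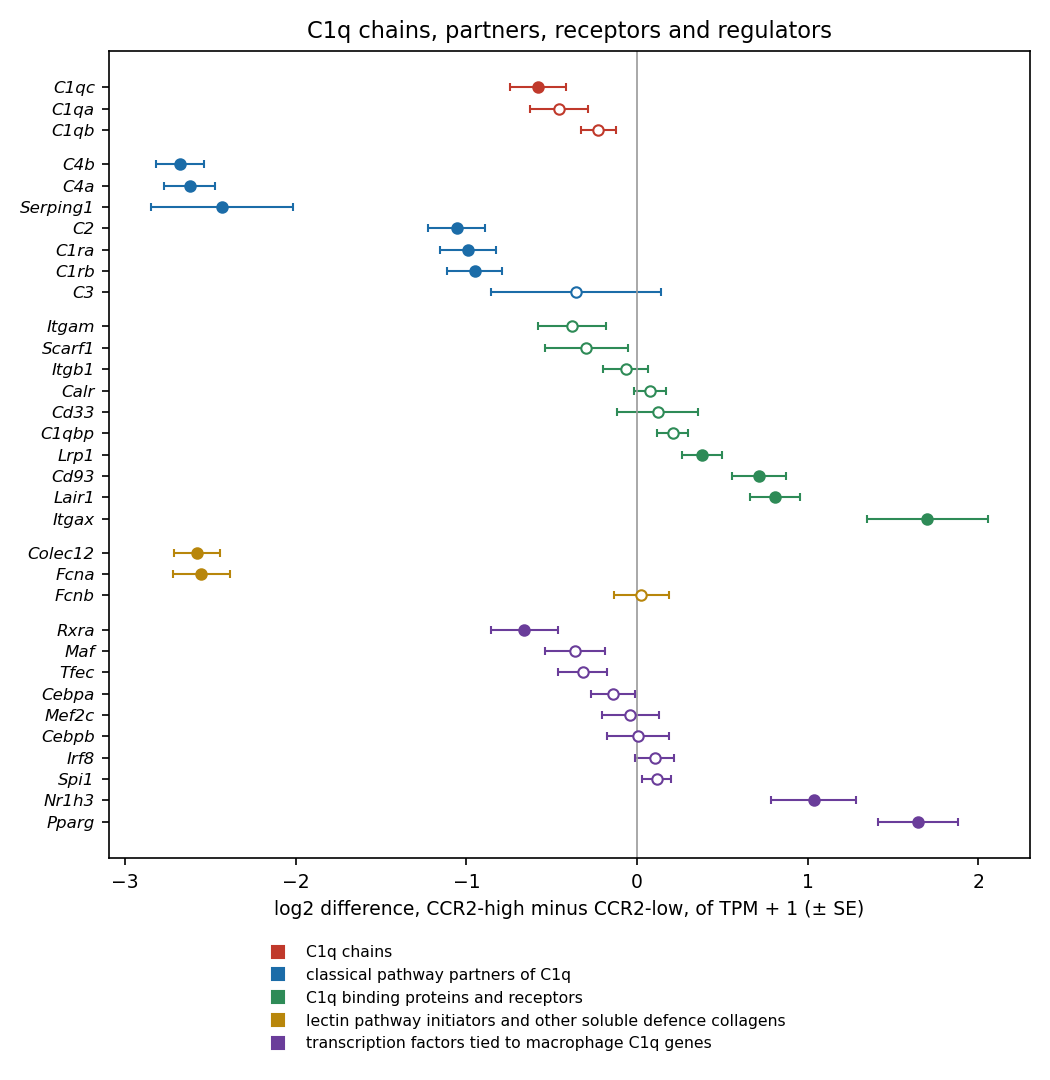
Log2 differences of CCR2-high minus CCR2-low libraries on the TPM + 1 scale (horizontal axis) with SE, for the C1q chains and the tested members of 4 gene lists; filled points passed the adjusted p threshold of 0.05. The classical pathway partners reach -2.68, the chains lie from -0.58 to -0.23, and the called C1q binding proteins lie above 0.

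Other genes with a C1q-like globular domain were far less abundant than the chains. Of 27 list members 8 were tested, and 5 were called lower in CCR2-high libraries and 0 higher, beside 8.74% and 8.93% of all genes. The most abundant was Emilin2, a matrix protein gene, at 131 ± 27.0 TPM in CCR2-high and 271 ± 115 TPM in CCR2-low libraries (adjusted p = 0.022), followed by the secreted C1qtnf1 at 61.0 ± 25.0 and 105 ± 17.0 TPM (adjusted p = 0.0287), which was listed at 0 in the labelled monocytes. Emilin1 stood highest in labelled monocytes, at 123 ± 25.2 TPM, against 14.2 ± 0.289 and 19.6 ± 9.98 TPM. C1qtnf9 stood at 2.38 ± 0.435 and 11.1 ± 4.70 TPM (adjusted p = 0.00109). Adipoq, the adipocyte hormone, is also on the adipocyte list.

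Among the enzymes and chaperones that hydroxylate and fold collagen-like chains, several less abundant members were lower in CCR2-high libraries and the most abundant ones were not called. Of 17 list members 14 were tested. Between the macrophage subsets 5 were called lower in CCR2-high libraries and 0 higher, beside 8.74% and 8.93% of all genes. The median log2 difference was -0.33, beside -0.01 over all genes. The 5 were Serpinh1, the collagen chaperone, at 2.11 ± 0.979 and 11.9 ± 1.29 TPM in CCR2-high and CCR2-low libraries (adjusted p = 0.000195), Crtap, a partner of prolyl 3-hydroxylase, at 31.5 ± 4.02 and 55.2 ± 2.07 TPM (0.00149), the prolyl isomerase gene Fkbp10 at 0.178 and 1.36 TPM (0.00224), the prolyl 4-hydroxylase gene P4ha2 at 0.783 and 1.81 TPM (0.0192) and the collagen galactosyltransferase gene Colgalt2 at 0.709 and 1.52 TPM (0.0423, and 0.0531 with quantile normalization). Serpinh1 is typical of fibroblasts as well. Against labelled monocytes, P4ha1, P4ha2, Plod1, Colgalt2 and Serpinh1 were called higher in both subsets. Over the whole list the higher calls numbered 5 and the lower calls 7 for CCR2-high libraries, and 6 and 6 for CCR2-low libraries. Over all 15467 genes tested the higher and lower calls numbered 4106 and 7932 for CCR2-high libraries, and 4397 and 7828 for CCR2-low libraries. With median-of-ratios scaling Crtap, Ppib, Pdia3 and Hspa5 lost their lower call for CCR2-high libraries, and Ppib and Hspa5 theirs for CCR2-low libraries. P4hb, a subunit of prolyl 4-hydroxylase, stood at 318 ± 14.1 TPM in CCR2-high, 326 ± 23.7 TPM in CCR2-low and 996 ± 129 TPM in labelled monocyte libraries. Hspa5 at 731 ± 32.2 and 753 ± 60.1 TPM and Pdia3 at 499 ± 15.9 and 505 ± 19.1 TPM, both chaperones of the endoplasmic reticulum, were not called between the subsets (adjusted p = 0.815 and 0.932), nor was Hsp90b1 at 258 and 255 TPM (adjusted p = 0.949).

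Among transcription factors tied to macrophage C1q genes in mouse, Rxra, the retinoid X receptor alpha gene, was called lower in CCR2-high libraries. It stood at 21.6 ± 3.29 TPM in CCR2-high, 34.5 ± 2.98 TPM in CCR2-low and 1.77 ± 0.755 TPM in labelled monocyte libraries, and fell by 0.66 on the log2 scale between the subsets (adjusted p = 0.0428). Pparg, a lipid-sensing nuclear receptor, ran the other way, at 45.4 ± 16.7 and 13.4 ± 2.85 TPM (adjusted p = 0.00113), as did Nr1h3, the liver X receptor alpha gene, at 13.7 ± 4.89 and 6.03 ± 1.56 TPM (adjusted p = 0.0169). Of 11 list members 10 were tested, with 2 called higher and 1 lower in CCR2-high libraries, beside 8.93% and 8.74% of all genes.

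Spi1, which encodes PU.1, differed little by comparison, at 227 ± 9.26, 209 ± 9.16 and 178 ± 9.91 TPM in CCR2-high, CCR2-low and labelled monocyte libraries, and was not called between the macrophage subsets (adjusted p = 0.409). Cebpb stood at 558 ± 80.6 and 567 ± 170 TPM in the subsets and Mef2c at 76.9 and 79.1 TPM, neither called (adjusted p = 0.988 and 0.902), and Irf8 was highest in labelled monocytes at 184 ± 27.9 TPM. Against labelled monocytes 7 of the 10 factors were called higher and 3 lower in both subsets, and the lower call of Cebpa was lost with median-of-ratios scaling. Of all 15467 genes tested, 26.5% were called higher in CCR2-high and 28.4% in CCR2-low libraries, while 7932 and 7828 were called lower. After MI none of 10 tested factors was called.

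The genes next to the C1q cluster were read at far lower levels than the chains or differed far less from the labelled monocytes. Ephb2, 43800 bases beyond C1qb, averaged at most 0.357 TPM in any steady-state group, and Epha8, 30575 bases beyond C1qa, at most 0.0332 TPM, and both encode ephrin receptors. Zbtb40 averaged 1.64 TPM in CCR2-high, 1.82 TPM in CCR2-low and 3.59 TPM in labelled monocyte libraries, and Kdm1a, a histone demethylase gene, 17.96, 19.98 and 34.2 TPM, so both were highest where C1q was lowest. Cdc42, which encodes a small GTPase and starts 420852 bases beyond C1qa, averaged 788, 620 and 451 TPM. It was called higher than in labelled monocytes in both subsets, as the chains were (log2 difference 0.81, adjusted p = 2.91e-05, and 0.46, adjusted p = 0.00176). Between the subsets Cdc42 was called higher in CCR2-high libraries (log2 difference 0.34, adjusted p = 0.0441), where the chains were lower. Wnt4, which encodes a secreted signalling protein, had the order of the chains at a low level, 0.392, 0.438 and 0.0163 TPM, and was too low to be tested. Neighbours were taken as the 4 nearest protein-coding RefSeq genes on each side; Lactbl1 averaged at most 0.085 TPM in any steady-state group, and Tex46 was not analysed here.

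The 8 genes whose log2(TPM + 1) profile over the 9 steady-state libraries was most like the mean profile of the chains were, in order, Pltp, Cd36, Cbr2, Cd83, Atf3, Cd74, Folr2 and Cxcl1, out of 8434 genes with a mean of at least 10 TPM in a group. Likeness was the root mean square difference of centred log2 values and ran from 0.177 for Pltp to 0.635 for Cxcl1. Pltp, the phospholipid transfer protein gene, averaged 1235 ± 146 TPM in CCR2-high, 1805 ± 47.3 TPM in CCR2-low and 0.0261 ± 0.0289 TPM in labelled monocyte libraries. Cd36, a scavenger receptor gene, averaged 825 ± 137, 1233 ± 266 and 0.0292 TPM, and Cbr2, carbonyl reductase 2, 1002 ± 310, 2087 ± 503 and 0.323 TPM. The measure is ruled by the gap between macrophages and labelled monocytes: Cd83, Cd74, Atf3 and Cxcl1 are on the list although their CCR2-high means exceeded their CCR2-low means. Folr2, the folate receptor beta gene, averaged 769 ± 213 and 2525 ± 524 TPM and was listed at 0 in the labelled monocytes.

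**Figure D4:**
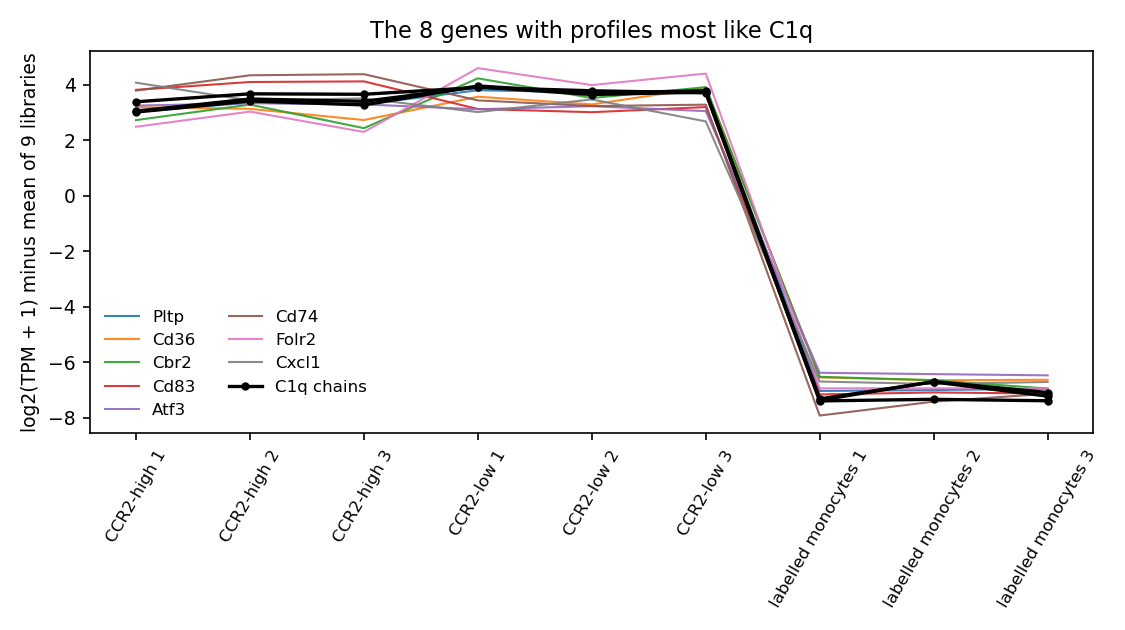
Centred profiles of the C1q chains (black) and of the 8 most alike genes over the 9 steady-state libraries, with log2(TPM + 1) minus the mean over the libraries on the vertical axis. All lines drop to the labelled monocytes, and the chains stay close to Pltp, which differs from their mean profile by 0.177.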

How the data were processed

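RNA was extracted with a PicoPure kit from sorted cells, per the labels' protocols. For the steady state the authors deposited TPM per library, along with columns of log2 fold change and adjusted p-value for 3 comparisons, per the file headers, and for the surgery libraries RPKM per library, per the file headers. Per the submitters' processing notes, mm10 was the build; no aligner, annotation or test is named there. The deposited TPM and RPKM values of each chain were whole multiples of a read over the GENCODE M21 exon length, and reads were worked back from them (whole within 0.05).

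Values were log2-transformed after a pseudocount of 1 was added. Genes that reached 1 in 3 or more libraries of their table were fitted with limma 3.58.1 (R 4.3.3), using eBayes with its trend option, and two-sided p-values were adjusted by Benjamini-Hochberg over them, with calls below 0.05. The 9 steady-state libraries shared 1 estimate of spread, and the 6 surgery libraries were fitted alone. Chain ratios were compared by exact permutation of log2 ratios without a pseudocount, adjusted over 4 tests. In simulated data with a log2 change of 1, 80, 79, 84.5 and 76% of 200 changed genes were recovered (CCR2-high against CCR2-low, CCR2-high and then CCR2-low against labelled monocytes, MI against sham), and at 0.5 the shares were 8, 0, 0 and 0%. Replicate numbers follow the sample titles; those in the surgery table's headers differ.

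The chains and 18 other gene lists were chosen with earlier results of these data known. Named genes were the chains, up to 4 members of each complement or C1q list with the highest mean, called members, the 8 genes of most similar profile and the 4 nearest genes on each side of the cluster. Counts and medians over a list are descriptions. A further item that meets this rule is not reported here.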

Additional observations from a re-analysis of the deposited data

How the results depend on the processing

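The lower C1qc level of CCR2-high libraries, against CCR2-low ones, kept its direction but not its call under several settings: -0.58 with a pseudocount of 0.1 (adjusted p = 0.201), without the filter on low values (0.0945), without the intensity trend (0.0545) and with a replicate block (0.0522), and -0.39 with quantile normalization (0.0977). Leaving out each library in turn gave -0.67 to -0.47 for C1qc, -0.54 to -0.33 for C1qa and -0.28 to -0.13 for C1qb. C1qa was called (-0.46, adjusted p = 0.0371) without labelled monocyte replicate 2, which enters only the estimate of spread. The count of genes called between the subsets, 2733, ran from 1481 to 3453 over the left-out libraries, and without CCR2-high replicate 1 it was 1481, without CCR2-low replicate 1 it was 1580 and without CCR2-low replicate 3 it was 1612. After MI the count ran from 0 to 5, with 5 without MI replicate 3, and the cause was not tested. With a pseudocount of 1 the steady-state ratio tests passed the threshold at the same macrophage difference (-0.23 for C1qa to C1qb, exact permutation p = 0.00357, and -0.35 for C1qc to C1qb, p = 0.0107), since the added 1 is as large as the labelled monocyte values. Left-out libraries gave -0.28 to -0.19 and -0.40 to -0.32 for these differences, and C1qc to C1qb passed without labelled monocyte replicate 2 (exact p = 0.00357). The differences of the chains from labelled monocytes kept their calls in all 18 alternatives and the MI against sham chains stayed uncalled in all 15.

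Same-numbered libraries did not deviate together (correlations of deviations from -0.57 to 0.06), which cannot show whether they came from the same mice or the same sort. The surgery numbers used here are those of the titles, which differ from those in the headers. The replicate block gave 1795 called genes between the subsets. Depth limits the labelled monocyte ratios, which rest on 12 to 42 reads a chain, and 3 libraries a group limit the rest.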
